A study of Mus musculus with 45 samples.

Results

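The regions described here are the ATACseq peaks around Otx2, Fgf5 and Pou3f1, 3 genes of the formative epiblast. A peak was taken when its summit lay within 70 kb of the 5′ end of one of these genes in the GENCODE annotation of mm10. This rule used no change in accessibility, but the genes were chosen with earlier results of these data known. Of 184964 peaks in all, 61 met this rule: 21 around Otx2, 9 around Fgf5 and 31 around Pou3f1. Each peak is named by its gene and by the distance of its summit from the 5′ end in kb, negative upstream and positive in the direction of transcription.

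Accessibility was measured by ATACseq, in which the transposase Tn5 cuts open DNA, in mouse embryonic stem cells grown in serum-free medium with LIF, PD0325901 and CHIR99021. In the 3 lines SOX2-FKBP, OCT4-FKBP and NANOG-FKBP both copies of the named factor's gene carry an FKBP degradation tag, in the controls as well, so that dTAG-13 sends the tagged protein to the proteasome. Cells received 500 nM dTAG-13 for 0.5, 1, 2, 6 or 24 h (SOX2-FKBP) or for 2, 6 or 24 h (OCT4-FKBP and NANOG-FKBP), and the untreated group (NT) received DMSO. Each group held 2 libraries, except for the 3 treated NANOG-FKBP groups with 3 libraries each, which gives 31 libraries. The methods speak of duplicates for NANOG depletion, and no source used here says how the third treated library of each group arose. The lines are selected clones. The labels name E14 as the cell line throughout, and the methods give E14 for NANOG-FKBP and SOX2-FKBP (IB10 cells) but v6.5 cells for OCT4-FKBP, so the depleted factor and the background of the line cannot be told apart. The methods mention an independent clone for SOX2 without saying which libraries came from it. No source used here says that the libraries of a group came from separate cultures, so p-values measure only the spread between these libraries, which may be technical.

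Otx2 encodes a homeodomain transcription factor that directs the move from naive to formative pluripotency. Fgf5 encodes a secreted fibroblast growth factor and is a classic marker of the post-implantation epiblast. Pou3f1, also known as Oct6, encodes a POU domain factor of the same protein family as OCT4. All 3 genes are low in naive stem cells and rise when cells leave that state, and elements far from their starts are known to take part in their regulation. SOX2 and OCT4 bind DNA together and can open chromatin, whereas NANOG is a homeodomain factor of the naive network.

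The libraries held 1817191 to 17575631 counts in peaks. The 3 treated NANOG-FKBP libraries numbered 2 stood apart from the others, with 1817191 to 3272168 counts and 13.2 to 17.6% of them on the mitochondrial genome, against 1.42 to 6.65% in the other 28 libraries. In NT cells 5 of 7 pluripotency markers had a peak at their 5′ end, among them Sox2 (268 to 347 normalized counts over the 6 NT libraries), Nanog (173 to 357), Zfp42 (205 to 307) and Klf4 (274 to 310), with Esrrb much lower (9.05 to 19.9), while Pou5f1 and Tdgf1 had none within 500 bp. Peaks were also found at the 5′ ends of 5 of 7 genes of differentiated lineages. These were Sox1 (183 to 388), Gata6 (141 to 295), Cdx2 (79.6 to 244), T (59.6 to 169) and Sox17 (42.4 to 102). Of 4 fibroblast genes 2 had such a peak, Col1a2 (2.65 to 11.9) and Thy1 (64.1 to 152). Open 5′ ends were thus not particular to pluripotency genes, and these peaks alone do not identify the cell type. In such bulk samples, fewer cells with an open site and less cutting per cell cannot be told apart.

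The DNA of 8 peaks on which the results turn is given here, as 300 bp of the plus strand of GRCm38 (mm10) around each summit, with matches to short words in capitals. The words were ACAAAG or ACAATG for SOX factors, ATGCAAAT or ATGCTAAT for the POU octamer, TAATCC for OTX and GGGNGTGG for KLF factors, each sought on both strands. The first 3 peaks, in introns of the antisense non-coding gene Otx2os1 upstream of Otx2, lost accessibility after depletion of SOX2. The first holds 3 SOX words, the second holds 1, and the third holds none of these words.
Otx2 -27.4 kb, chr14:48701064-48701363: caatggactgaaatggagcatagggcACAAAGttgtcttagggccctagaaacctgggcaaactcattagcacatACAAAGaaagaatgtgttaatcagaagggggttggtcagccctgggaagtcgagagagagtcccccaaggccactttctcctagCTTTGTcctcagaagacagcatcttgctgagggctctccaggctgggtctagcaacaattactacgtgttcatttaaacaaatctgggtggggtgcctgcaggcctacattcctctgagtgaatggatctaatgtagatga
Otx2 -35.8 kb, chr14:48709424-48709723: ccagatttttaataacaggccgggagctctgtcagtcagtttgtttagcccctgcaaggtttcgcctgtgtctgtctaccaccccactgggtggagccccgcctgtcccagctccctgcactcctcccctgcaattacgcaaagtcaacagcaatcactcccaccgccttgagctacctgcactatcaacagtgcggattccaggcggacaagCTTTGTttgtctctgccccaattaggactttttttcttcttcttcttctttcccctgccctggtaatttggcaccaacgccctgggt
Otx2 -42.9 kb, chr14:48716575-48716874: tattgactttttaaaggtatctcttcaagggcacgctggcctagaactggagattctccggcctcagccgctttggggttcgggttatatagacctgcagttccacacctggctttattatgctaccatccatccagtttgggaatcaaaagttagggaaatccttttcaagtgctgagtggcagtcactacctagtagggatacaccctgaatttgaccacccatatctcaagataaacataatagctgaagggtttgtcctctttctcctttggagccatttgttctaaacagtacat

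The Fgf5 +1.8 kb peak, in the first part of the gene body within an intron of Fgf5, is shown because it was the one member called in all 3 lines. It holds none of the words.
Fgf5 +1.8 kb, chr5:98255846-98256145: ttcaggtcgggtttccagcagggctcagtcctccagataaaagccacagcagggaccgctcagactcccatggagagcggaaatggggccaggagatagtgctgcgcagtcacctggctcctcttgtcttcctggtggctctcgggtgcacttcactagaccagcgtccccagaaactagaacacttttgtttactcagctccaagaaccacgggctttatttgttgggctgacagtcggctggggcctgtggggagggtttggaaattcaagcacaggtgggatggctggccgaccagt

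The 4 peaks of Pou3f1 lie upstream of the gene in introns of the non-coding gene Gm2164. The -10.0 and -29.8 kb peaks gained accessibility after SOX2 depletion and hold 1 KLF word and no word, respectively. The -11.7 and -35.1 kb peaks were called in opposite directions in different lines. The former holds 2 SOX words and 1 OTX word, and the latter holds 1 octamer and 2 KLF words.
Pou3f1 -10.0 kb, chr4:124646676-124646975: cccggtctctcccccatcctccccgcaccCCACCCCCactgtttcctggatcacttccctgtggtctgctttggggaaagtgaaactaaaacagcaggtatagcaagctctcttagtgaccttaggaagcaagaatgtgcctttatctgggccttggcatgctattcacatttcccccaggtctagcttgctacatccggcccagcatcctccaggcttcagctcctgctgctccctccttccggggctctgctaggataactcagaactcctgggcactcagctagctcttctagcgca
Pou3f1 -29.8 kb, chr4:124626867-124627166: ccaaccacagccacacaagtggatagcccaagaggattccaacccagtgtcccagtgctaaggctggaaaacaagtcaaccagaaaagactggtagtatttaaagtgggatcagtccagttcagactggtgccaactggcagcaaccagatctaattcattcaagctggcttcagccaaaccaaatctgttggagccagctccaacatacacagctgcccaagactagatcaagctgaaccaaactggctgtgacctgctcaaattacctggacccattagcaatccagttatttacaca
Pou3f1 -11.7 kb, chr4:124644995-124645294: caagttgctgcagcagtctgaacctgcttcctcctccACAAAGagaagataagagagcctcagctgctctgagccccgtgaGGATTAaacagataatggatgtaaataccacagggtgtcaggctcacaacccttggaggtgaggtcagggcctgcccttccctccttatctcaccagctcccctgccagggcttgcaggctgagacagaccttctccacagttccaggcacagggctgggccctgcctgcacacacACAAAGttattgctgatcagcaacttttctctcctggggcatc
Pou3f1 -35.1 kb, chr4:124621533-124621832: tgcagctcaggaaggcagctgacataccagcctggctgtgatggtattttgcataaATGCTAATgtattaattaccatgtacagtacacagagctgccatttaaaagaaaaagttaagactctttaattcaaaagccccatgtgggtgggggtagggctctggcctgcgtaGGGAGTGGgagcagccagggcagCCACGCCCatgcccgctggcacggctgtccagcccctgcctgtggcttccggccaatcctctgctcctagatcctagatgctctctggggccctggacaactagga

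In NT cells the 3 loci differed in how many strong peaks they held. Values are given as normalized counts, which are fragments per peak scaled to a common library size by the TMM method, and peaks of different width are not compared per length. The mean over the 6 NT libraries had a median of 35.9 over the 21 Otx2 peaks (range 7.1 to 283), 7.29 over the 9 Fgf5 peaks (5.83 to 160) and 25.9 over the 31 Pou3f1 peaks (5.15 to 265). In all, 19 of the 61 peaks reached a mean of 50 or more. The highest Otx2 peak was not at the 5′ end but at +18.7 kb, beyond the end of the gene, with a mean of 283 against 102 for the -0.8 kb peak nearest to the 5′ end. The peak nearest to the 5′ end of Fgf5, at +0.2 kb, had a mean of 52.8, against 160 for the intronic +1.8 kb peak. Around Pou3f1, the +0.5 kb peak over the gene itself had a mean of 239, and the highest peak, at +43.7 kb, lay 149 bp from the start of Fhl3.

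**Figure D1:**
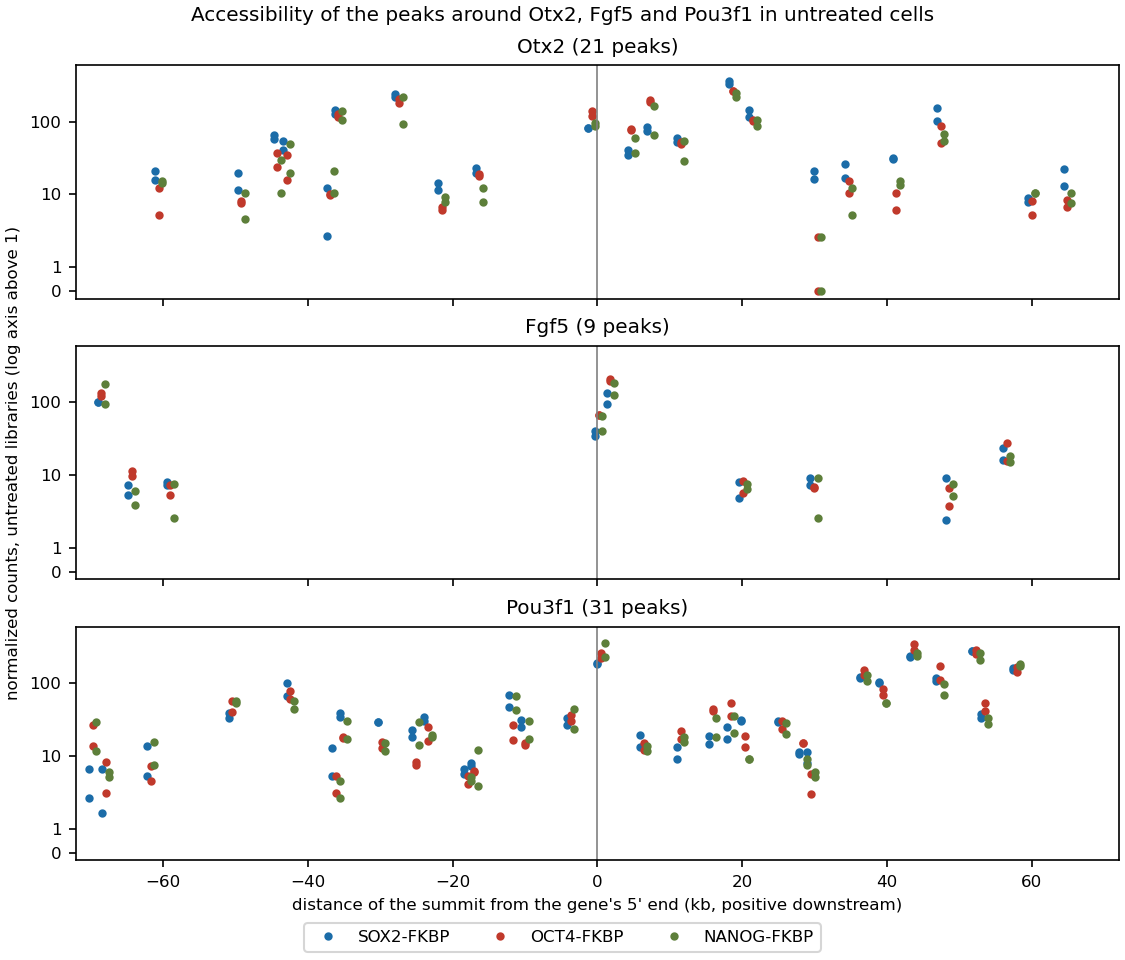
Accessibility in NT cells of the 61 peaks, with the distance of each summit from the 5′ end in kb on the horizontal axis and normalized counts on a vertical axis that is logarithmic above 1. Each point is 1 of 6 NT libraries, coloured by line. The Fgf5 locus holds 3 peaks with a mean of 50 or more, and the Otx2 and Pou3f1 loci hold 8 each.

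By annotation, 12 of the 21 Otx2 summits lay in introns, 2 in non-coding exons and 7 between genes. Otx2 lies at chr14:48657677-48673819 on the minus strand, and its upstream summits fall in Otx2os1, which is antisense to it. Fgf5 lies at chr5:98254184-98277030 on the plus strand, with 5 summits between genes, 2 in introns, 1 in a UTR and 1 in a coding exon of Prdm8. Pou3f1 is a short gene at chr4:124656807-124660655 on the plus strand, and of its 31 summits 18 lay in introns, 11 between genes, 1 in a UTR and 1 in a coding exon. Its window also holds the starts of 3100002H09Rik, Utp11, Fhl3 and Sf3a3, so a peak named after Pou3f1 here is near that gene and need not act on it.

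Over all 3 loci, losses gathered around Otx2 and gains around Pou3f1. A peak was called lost or gained when edgeR's quasi-likelihood test against NT of the same line gave a Benjamini-Hochberg adjusted p under 0.05, adjusted over all peaks tested. Of the 61 members 58 had enough counts for at least 1 fit and 55 for each fit, and Fgf5 +48.6 kb, Pou3f1 -17.0 kb and Pou3f1 -67.9 kb were tested in none. At 24 h of SOX2 depletion 7 of 55 members were lost, where 14.1% of all tested peaks were lost, and 8 were gained, where 9.17% of all were gained. At 24 h of OCT4 depletion 9 were lost (12.7% of all) and 7 were gained (10.8% of all). At 24 h of NANOG depletion 2 were lost (2.25% of all) and 0 were gained (0.288% of all), with 4 higher at an unadjusted p under 0.05 and 0 by DESeq2. Over all members, the shares lost and gained lie near those of all peaks.

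The calls built up with time. After SOX2 depletion 2 members were lost and 0 gained at 0.5 h, with a background of 3.14% lost and 0.158% gained, 1 higher at an unadjusted p under 0.05 and 0 by DESeq2. At 1 h there were 2 losses (5.46% of all) and 1 gain (0.889%), at 2 h 2 losses (7.28%) and 3 gains (1.46%), and at 6 h 4 losses (9.28%) and 5 gains (2.66%). OCT4 depletion gave 3 losses (5.10%) and 2 gains (1.92%) at 2 h, and 4 losses (7.97%) and 5 gains (4.12%) at 6 h. NANOG depletion gave 0 calls at 2 h by edgeR and by DESeq2 (background 0.938% lost and 0.0162% gained), with 2 members lower and 2 higher at an unadjusted p under 0.05. At 6 h 1 member was lost after NANOG depletion (1.08% of all) and 0 were gained (0.0367%), with 5 higher at an unadjusted p under 0.05 and 0 by DESeq2. In any line at any time 13 of 58 members were ever lost, where 20.5% of all peaks were, and 16 were ever gained, where 19.3% were, and 2 of these, Pou3f1 -11.7 and -35.1 kb, were counted in both.

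**Figure D2:**
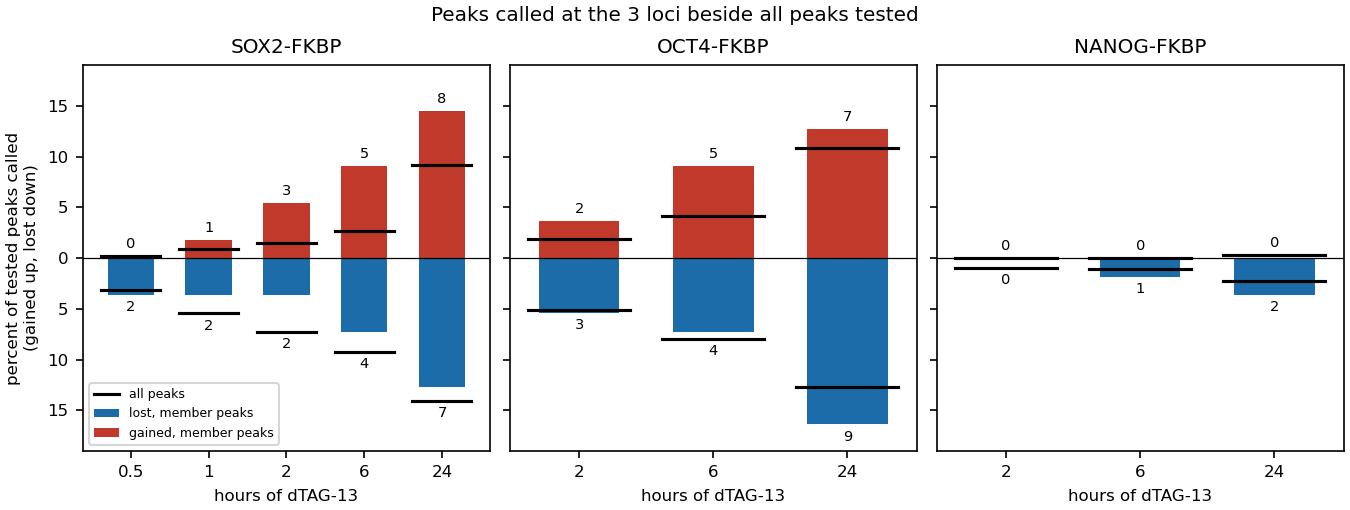
Share of tested peaks called after depletion, in percent, with gained peaks upward and lost peaks downward, by line and hours of dTAG-13. Bars are the 55 tested members with their counts, and black lines are all tested peaks. At 24 h of SOX2 depletion 8 members were gained and 7 were lost.

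Some of these counts depended on single libraries. At 24 h of SOX2 depletion 4 members were lost without 24 h replicate 1 or NT replicate 2, and gains numbered 2 without NT replicate 1, 4 without NT replicate 2 or 24 h replicate 1, and 5 without 24 h replicate 2 or 2 h replicate 1. DESeq2 called 3 gains, and the joint fit of the 3 lines called 4 gains and 4 losses. At 24 h of OCT4 depletion there were 4 losses and 2 gains without 24 h replicate 1, and 5 losses and 2 gains without NT replicate 2. With scaling to total counts, which shifted the members' log2 fold changes at 24 h of OCT4 depletion by a median of -0.13, 10 members were lost and 2 gained. At 2 h of SOX2 depletion 1 was lost without NT replicate 2 or without either 2 h library, and 1 was gained without NT replicate 1. With total counts 1 was lost and 4 gained at that time. At 2 h of OCT4 depletion 1 was lost without 2 h replicate 2 or NT replicate 2, and gains fell to 1 without 2 h replicate 1 and to 0 without 2 h replicate 2 or NT replicate 1. After NANOG depletion 0 were lost at 24 h without 24 h replicate 1 or 3, and 1 without either NT library. Same-numbered libraries deviated together in SOX2-FKBP and OCT4-FKBP, and blocking on that number changed the calls to 5 gained at 2 h of SOX2 depletion, 11 lost at 24 h of SOX2 depletion and 6 gained at 2 h of OCT4 depletion.

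Around Otx2 accessibility was lost after depletion of SOX2 or OCT4, and no gain was called. At 24 h of SOX2 depletion 5 of 21 tested Otx2 peaks were lost (23.8%, beside 14.1% of all peaks). At 24 h of OCT4 depletion 6 of 20 were lost (30%, beside 12.7%). Around the other formative genes described below, 22.1% were lost after SOX2 depletion and 25.6% after OCT4 depletion. Around the naive genes these shares were 24.4% and 29%. Gains at Otx2 numbered 0 in both lines by edgeR (9.17% and 10.8% of all peaks), with 0 higher at an unadjusted p under 0.05 and 0 by DESeq2. The median log2 fold change over the locus was -0.42 after SOX2 depletion and -0.33 after OCT4 depletion, beside medians of 0.04 and -0.01 over all peaks. NANOG depletion gave 0 calls among the 20 peaks at 24 h by edgeR and by DESeq2, with 2 higher and 0 lower at an unadjusted p under 0.05, and a median of 0.15 beside 0.03 over all peaks.

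The Otx2 -27.4 kb peak lost accessibility within 0.5 h of SOX2 depletion. Its 2 SOX2-FKBP NT libraries had 217 and 238 normalized counts, falling to 115 and 144 at 0.5 h and to 94.4 and 97 at 1 h. The later libraries had 110 and 89.6 at 2 h, 128 and 105 at 6 h, and 166 and 107 at 24 h. Every treated library lay below both NT libraries. The log2 fold change was -0.88 ± 0.19 (SE, n = 2 against 2, adjusted p = 0.00291 by edgeR) at 0.5 h, -1.30 ± 0.19 at 1 h and -0.77 ± 0.18 at 24 h (adjusted p = 0.00134). The 24 h value did not differ from that at 6 h past the threshold. OCT4 depletion acted in the same direction, with 207 and 183 in NT, 79 and 65.6 at 2 h, 92.1 and 71.6 at 6 h, and 87.3 and 112 at 24 h. The OCT4 log2 fold change was -1.45 ± 0.29 at 2 h (adjusted p = 0.000673) and -0.97 ± 0.30 at 24 h (adjusted p = 0.0149). In NANOG-FKBP cells the NT libraries were far apart, at 217 and 92.6, and the 24 h libraries had 231, 313 and 230, with a log2 fold change of 0.69 ± 0.27 (adjusted p = 0.246). Without single libraries, calls were lost at 0.5 h of SOX2 depletion (-0.69 without 0.5 h replicate 1, -0.81 without NT replicate 2), at 24 h of SOX2 depletion (-0.52 without 24 h replicate 2) and at 24 h of OCT4 depletion (-0.78 without 24 h replicate 1, -0.88 without NT replicate 1).

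The weaker Otx2 -42.9 kb peak, chosen after its values were seen, also lost accessibility early after both depletions, while its later course differed. Its SOX2-FKBP libraries had 41.4 and 54.3 normalized counts in NT, 20 and 24 at 0.5 h, 19.9 and 22.8 at 1 h, 25.9 and 25.6 at 2 h, 10.7 and 12.8 at 6 h, and 26.4 and 12.4 at 24 h. In OCT4-FKBP cells it went from 15.8 and 35.1 in NT to 8.98 and 6.68 at 2 h, 4.82 and 4.58 at 6 h, and 2.82 and 2.99 at 24 h. This was the largest called loss among the members, with a log2 fold change of -3.13 ± 0.68 at 24 h of OCT4 depletion (adjusted p = 0.00055 by edgeR), though it rests on few counts. The corresponding value after SOX2 depletion was -1.31 ± 0.30 (adjusted p = 0.000943). The NANOG-FKBP libraries overlapped, at 49.2 and 19.7 in NT and 46.1, 28.8 and 16.6 at 24 h. The -27.4 and -42.9 kb peaks were the 2 members that edgeR called at every time of SOX2 depletion and of OCT4 depletion. By DESeq2 the SOX2 calls of -42.9 kb at 0.5, 1 and 2 h did not pass (-1.19, -1.22 and -0.95), and with total counts that at 2 h did not (-0.84). At -42.9 kb the calls at 0.5, 1 and 2 h of SOX2 depletion ended without NT replicate 2 (-0.99, -1.03 and -0.74), those at 0.5 and 2 h also without either treated library of that time (-1.0 and -1.28 at 0.5 h, -0.93 and -0.92 at 2 h), and that at 1 h without 1 h replicate 1 (-1.06). The 24 h call ended without 24 h replicate 2 (-0.89), and for OCT4 the 2 h call ended without NT replicate 2 (-1.04) or 2 h replicate 2 (-1.53) and the 6 h call without NT replicate 2 (-1.72).

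The Otx2 -35.8 kb peak, between these 2, lost accessibility later and was called after SOX2 depletion alone. Its SOX2-FKBP libraries had 145 and 128 normalized counts in NT, 132 and 151 at 0.5 h, 115 and 88.5 at 1 h, 90.7 and 107 at 2 h, 79.4 and 90.4 at 6 h, and 59.4 and 45.3 at 24 h. The groups overlapped at 0.5 h, and from 1 h on every treated library lay below NT. The log2 fold change was -0.73 ± 0.19 at 6 h (adjusted p = 0.00535 by edgeR) and -1.43 ± 0.20 at 24 h (adjusted p = 8.7e-07). Without 6 h replicate 1 or NT replicate 1 the 6 h call was lost (-0.66 and -0.64), while the 24 h call held in all 12 fits that left out 1 library. In OCT4-FKBP cells the values were 116 and 128 in NT and 83 and 103 at 24 h, with a log2 fold change of -0.39 ± 0.24 (adjusted p = 0.254). The difference between the SOX2 and OCT4 responses at 24 h was -0.99 ± 0.34 and did not pass the test (adjusted p = 0.127). The NANOG-FKBP value at 24 h was 0.00 ± 0.23, with overlapping libraries at 107 and 141 in NT and 116, 132 and 128 after treatment.

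On the other side of the gene, the 2 strongest downstream peaks were called lost at 24 h and at no earlier time. For +18.7 kb this held after both depletions, and for +21.5 kb after SOX2 depletion alone. The Otx2 +18.7 kb peak had 336 and 365 normalized counts in SOX2-FKBP NT and 212 and 267 at 24 h, a log2 fold change of -0.58 ± 0.15 (adjusted p = 0.00431 by edgeR). At the times between, its SOX2-FKBP libraries had 260 to 310, below both NT libraries, and no call was made. In OCT4-FKBP cells it had 264 and 268 in NT, 295 and 208 at 6 h, and 187 and 127 at 24 h (-0.76 ± 0.23, adjusted p = 0.0144). The neighbouring Otx2 +21.5 kb peak had 116 and 147 in SOX2-FKBP NT, 118 and 142 at 6 h, and 62.2 and 87.1 at 24 h (-0.82 ± 0.21, adjusted p = 0.0028). Its change fell between 6 and 24 h, since 24 h against 6 h gave -0.79 ± 0.20 (adjusted p = 0.0352). That test called 1.10% of all peaks lower and 0.466% higher, and among the members it called 2 lower, this peak and Pou3f1 -11.7 kb. In OCT4-FKBP cells Otx2 +21.5 kb had 106 and 101 in NT and 71.8 and 64.3 at 24 h, below NT without a call. Without 24 h replicate 1 or NT replicate 2 the SOX2 calls at 24 h were lost at +18.7 kb (-0.43 and -0.52) and at +21.5 kb (-0.61 and -0.66), and the OCT4 call at +18.7 kb was lost without 24 h replicate 2 (-0.51) or NT replicate 2 (-0.77), or with only the compared groups fitted (-0.78).

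After OCT4 depletion losses were also called farther downstream of Otx2. The test of the difference between the SOX2 and OCT4 responses at 24 h called no Otx2 peak by edgeR, with 1 lower and 1 higher at an unadjusted p under 0.05. The Otx2 +47.4 kb peak had 51.3 and 87.3 normalized counts in OCT4-FKBP NT, 44 and 65 at 2 h, 34.9 and 47.5 at 6 h, and 22.5 and 41.9 at 24 h. Its log2 fold change was -1.13 ± 0.31 at 24 h (adjusted p = 0.00624 by edgeR), and both 24 h libraries lay below NT. In SOX2-FKBP cells the same peak overlapped NT, with 104 and 155 in NT and 90.5 and 104 at 24 h (-0.41 ± 0.20, adjusted p = 0.141). Leaving out OCT4-FKBP 24 h replicate 1 or NT replicate 2 ended the 24 h call (-0.73 and -0.70), and the 6 h call of -0.78 ± 0.27 ended in 14 of 20 such fits and by DESeq2 (-0.77). The low peaks at +34.7 and +41.3 kb, chosen after their values were seen, were also called lost at 24 h of OCT4 depletion. The first went from 10.6 and 15.5 to 1.41 and 2.99 (-2.55 ± 0.69, adjusted p = 0.0054), and the second from 10.6 and 6.2 to 1.41 and 1.5 (-2.38 ± 0.73, adjusted p = 0.0176). Before scaling, the first went from 14 and 30 fragments to 1 and 2, and the second from 14 and 12 to 1 and 1. The second was also lost at 6 h of SOX2 depletion (-1.09 ± 0.31, adjusted p = 0.0156), at 13.4 and 16.6 against 30.9 and 31.8 in NT. The -60.6 kb peak was lost at 2 h of OCT4 depletion alone, at 1.8 and 1.21 against 5.28 and 12.4 (-2.59 ± 0.61, adjusted p = 0.00404). Before scaling these were 2 and 2 fragments against 7 and 24. Each of these 4 calls on low peaks ended without certain single libraries, with values from -2.43 to -0.97. For OCT4 these were 24 h replicate 1 and NT replicate 2 at +34.7 kb, both 24 h libraries and NT replicate 1 at +41.3 kb, and 2 h replicate 2 and NT replicate 2 at -60.6 kb, and for SOX2 6 h replicate 1 and both NT libraries at +41.3 kb. DESeq2 called neither change at +41.3 kb (-2.42 and -1.12).

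The 5′ end of Otx2 was not called in any comparison. The -0.8 kb peak had 82 and 83.4 normalized counts in SOX2-FKBP NT and 63.2 and 64.9 at 24 h, with a log2 fold change of -0.40 ± 0.20 (adjusted p = 0.147 by edgeR). In OCT4-FKBP cells it had 140 and 119 in NT and 103 and 85.3 at 24 h (-0.46 ± 0.23, adjusted p = 0.155). The treated libraries lay below NT in both lines, without passing the test. In NANOG-FKBP cells it had 97 and 88 in NT and 93.7, 119 and 104 at 24 h (0.16 ± 0.23). The intronic +7.3 kb peak, chosen after its values were seen as one of the stronger peaks without a call, had 202 and 188 in OCT4-FKBP NT and 207 and 115 at 24 h.

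**Figure D3:**
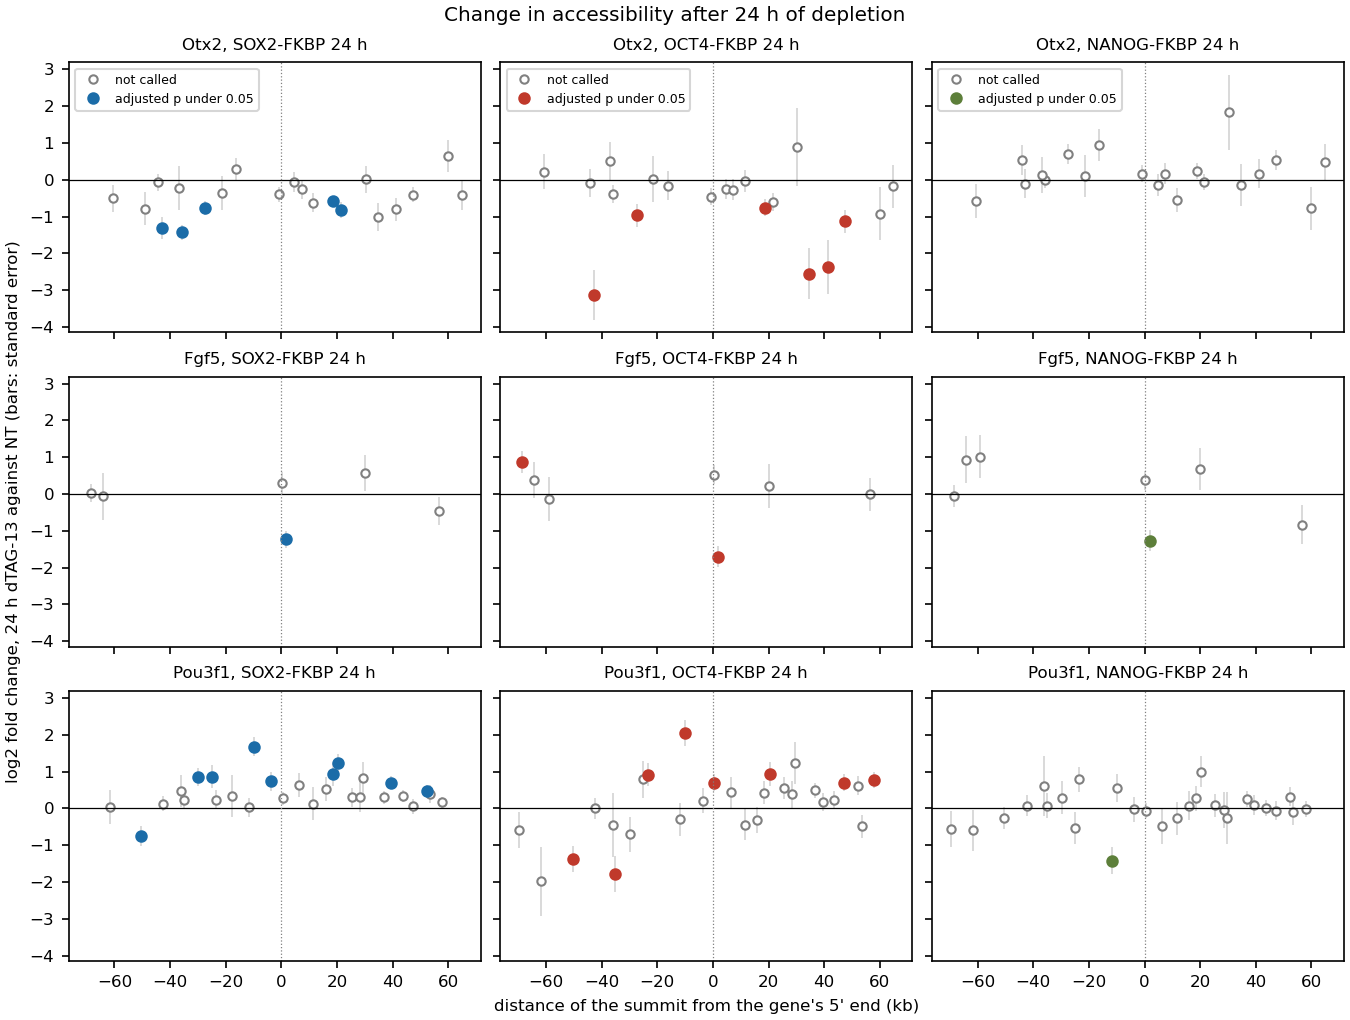
Log2 fold change at 24 h of dTAG-13 against NT on the vertical axis, with its standard error as a bar, by distance of the summit from the 5′ end in kb. Rows are the 3 loci, columns the 3 lines, and filled points passed an adjusted p of 0.05. Around Otx2 every filled point is below 0, and around Pou3f1 8 filled points lie above 0 after SOX2 depletion.

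Fgf5 had few peaks, and its strongest one lost accessibility in all 3 lines. The Fgf5 +1.8 kb peak had 95 and 136 normalized counts in SOX2-FKBP NT, 84.4 and 121 at 0.5 h, 106 and 106 at 1 h, 113 and 92.8 at 2 h, 73.1 and 88.1 at 6 h, and 43.4 and 55.1 at 24 h. The loss was called at 24 h, with a log2 fold change of -1.23 ± 0.23 (adjusted p = 6.37e-05 by edgeR). In OCT4-FKBP cells the course was not steady, with 213 and 200 in NT, 298 and 285 at 2 h, 254 and 234 at 6 h, and 80.2 and 46.4 at 24 h. The 2 h and 6 h libraries lay above NT without a call (0.49 ± 0.25 at 2 h, adjusted p = 0.347), and the 24 h value was -1.70 ± 0.29 (adjusted p = 2.63e-05). The drop between 6 and 24 h was itself called, at -1.92 ± 0.29 (adjusted p = 4.63e-05), in a test that called 4.49% of all peaks lower and 2.92% higher and this member alone. In NANOG-FKBP cells it had 127 and 188 in NT, 61.3, 105 and 89.3 at 2 h, 47.3, 91.3 and 81.5 at 6 h, and 57.3, 107 and 53.4 at 24 h. Every treated NANOG-FKBP library lay below NT, and the log2 fold change was -1.0 ± 0.28 at 2 h (adjusted p = 0.0774), -1.22 ± 0.28 at 6 h (adjusted p = 0.0135) and -1.27 ± 0.28 at 24 h (adjusted p = 0.00428). The highest treated value at 2, 6 and 24 h came from the shallow library numbered 2, and without these 3 libraries the 24 h value was -1.49 and still called. The SOX2 and OCT4 calls at 24 h held in every fit that left out 1 library, whereas the NANOG call at 24 h ended without 24 h replicate 1 (-1.14), 24 h replicate 3 (-1.11) or NT replicate 2 (-0.97), and that at 6 h without NT replicate 2 (-0.93).

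The 5′ end of Fgf5 stayed without a call while the intronic peak was lost. The +0.2 kb peak, which lies in the UTR, had 34.1 and 41 normalized counts in SOX2-FKBP NT and 39.6 and 53.3 at 24 h (0.30 ± 0.29). In OCT4-FKBP cells it had 67.9 and 68.2 in NT and 118 and 77.8 at 24 h, a log2 fold change of 0.53 ± 0.25 (adjusted p = 0.122 by edgeR), with both treated libraries above NT. The gain of this locus was at -68.5 kb, in a coding exon of Prdm8, where OCT4-FKBP cells went from 124 and 133 in NT to 267 and 197 at 24 h (0.86 ± 0.30, adjusted p = 0.0295). That call ended without 24 h replicate 1 (0.63), NT replicate 1 (0.81) or NT replicate 2 (0.88), with total counts (0.72) and with at least 10 counts in every library (0.65). In SOX2-FKBP cells the same peak overlapped NT, at 102 and 103 in NT and 68.8 and 142 at 24 h. The other Fgf5 peaks that were tested were not called in any line.

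Around Pou3f1 the prevailing change was a gain. At 24 h of SOX2 depletion 8 of 28 tested peaks were gained (28.6%, beside 9.17% of all peaks) and 1 was lost (3.57%, beside 14.1%). At 24 h of OCT4 depletion 6 were gained (21.4%, beside 10.8%) and 2 were lost (7.14%, beside 12.7%). The median log2 fold change over the locus was 0.33 and 0.31, beside 0.04 and -0.01 over all peaks. NANOG depletion gave 1 loss and 0 gains by edgeR, with 2 higher at an unadjusted p under 0.05 and 0 by DESeq2, and a median of 0. Over all times 10 of 28 Pou3f1 peaks were ever gained after SOX2 depletion (10.8% of all peaks) and 9 of 28 after OCT4 depletion (13.3%). DESeq2 called 3 gains at 24 h of SOX2 depletion and 5 at 24 h of OCT4 depletion, and its share over all peaks is not given here.

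The Pou3f1 -10.0 kb peak had the largest called gain at 24 h of SOX2 depletion and of OCT4 depletion. Its SOX2-FKBP libraries had 30.9 and 25.2 normalized counts in NT, 35.7 and 37.4 at 0.5 h, 60.6 and 42.8 at 1 h, 89.8 and 62.4 at 2 h, 75.8 and 102 at 6 h, and 98.1 and 89.8 at 24 h. Every treated library lay above both NT libraries. The gain was called from 2 h on, with log2 fold changes of 1.34 ± 0.25 at 2 h (adjusted p = 0.000188 by edgeR), 1.61 ± 0.25 at 6 h and 1.68 ± 0.25 at 24 h (adjusted p = 1.6e-06). In OCT4-FKBP cells it rose from 15.1 and 13.9 in NT to 26.9 and 31 at 2 h, 45.8 and 27.5 at 6 h, and 70.4 and 49.4 at 24 h, with 2.05 ± 0.36 at 24 h (adjusted p = 3.68e-05). The NANOG-FKBP libraries had 16.8 and 30.4 in NT and 23.8, 53.5 and 38 at 24 h, which overlap (0.54 ± 0.38, adjusted p = 0.688). Of its 5 calls, the one at 6 h of OCT4 depletion (1.32 ± 0.35) ended without NT replicate 2 (1.27), and the other 4 held in every fit that left out 1 library.

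The Pou3f1 -29.8 and -25.1 kb peaks gained accessibility early after SOX2 depletion. The former had 29.2 and 29.1 normalized counts in SOX2-FKBP NT, 42.7 and 53.9 at 0.5 h, 54.7 and 59.9 at 1 h, 63.9 and 56.8 at 2 h, 92.8 and 85.9 at 6 h, and 64.1 and 44.4 at 24 h. It was called from 1 h (0.90 ± 0.26, adjusted p = 0.0251 by edgeR) to 24 h (0.85 ± 0.25, adjusted p = 0.0108), with its highest value at 6 h (1.56 ± 0.23). By DESeq2 the 6 h call alone passed (0.90, 0.98 and 0.84 at 1, 2 and 24 h). In OCT4-FKBP cells it had 12.8 and 15.5 in NT and 7.04 and 10.5 at 24 h, below NT without a call (-0.71 ± 0.48, adjusted p = 0.319). The -25.1 kb peak, chosen after its values were seen, had 17.9 and 22.5 in SOX2-FKBP NT, 37 and 48.8 at 2 h, 50 and 54.2 at 6 h, and 34.9 and 38.2 at 24 h. Its log2 fold change was 1.07 ± 0.31 at 2 h (adjusted p = 0.0185), 1.36 ± 0.29 at 6 h (adjusted p = 0.000952) and 0.86 ± 0.32 at 24 h (adjusted p = 0.046). DESeq2 did not call it at 2 h (1.05) or 24 h (0.83), nor was it called at 24 h with DESeq2 size factors (0.84), total counts (0.85) or at least 10 counts in every library (0.82). At -29.8 kb the 1 h call ended without any of the NT and 1 h libraries (0.82 to 1.01), the 2 h call without 2 h replicate 1 (0.89) or NT replicate 1 (0.99), and the 24 h call without 24 h replicate 1 (0.57) or either NT library (0.86 and 0.85). At -25.1 kb the 24 h call ended in 7 of 12 such fits (0.67 to 1.00), the 2 h call without 2 h replicate 2 (0.84), NT replicate 1 (0.88) or NT replicate 2 (1.21), and the 6 h call without NT replicate 1 (1.17).

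**Figure D4:**
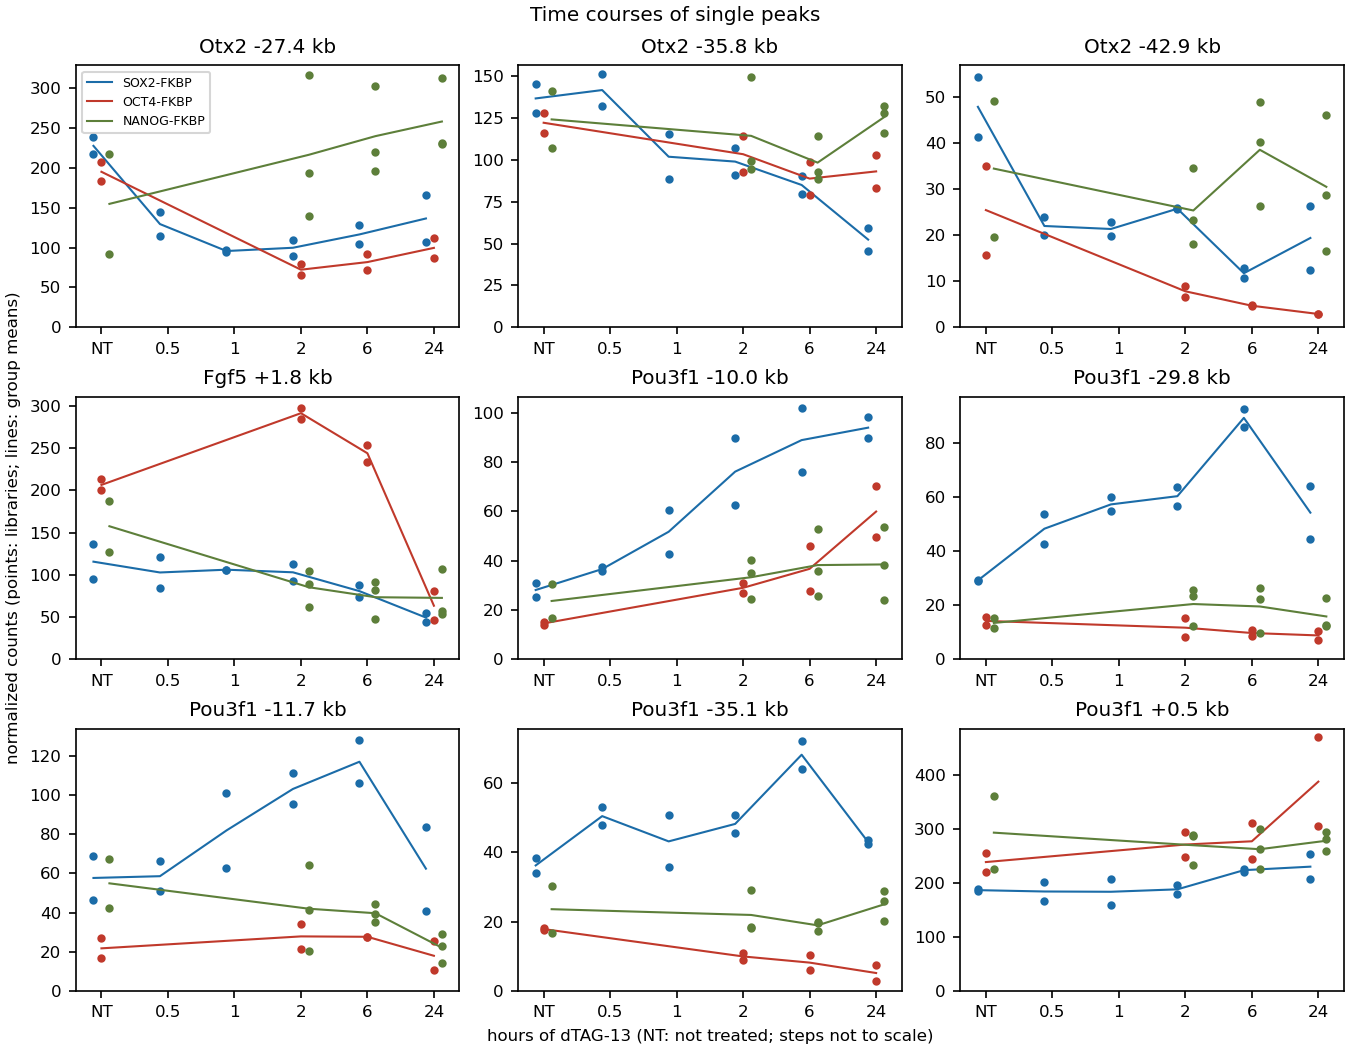
Normalized counts of 9 peaks by hours of dTAG-13, with 1 point per library, lines through the group means, and steps on the time axis not drawn to scale. Otx2 -27.4 kb is lower from 0.5 h of SOX2 depletion on, at 115 and 144 against 217 and 238 in NT. Pou3f1 -10.0 kb rises to 98.1 and 89.8 at 24 h of SOX2 depletion.

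A pair of Pou3f1 peaks was called in opposite directions in different lines. The -11.7 kb peak had 69 and 46.3 normalized counts in SOX2-FKBP NT, 111 and 95.2 at 2 h, 128 and 106 at 6 h, and 83.9 and 40.9 at 24 h. It was gained at 6 h (0.93 ± 0.24, adjusted p = 0.00553 by edgeR) and fell again by 24 h, since 24 h against 6 h gave -0.91 ± 0.23 (adjusted p = 0.0366). In NANOG-FKBP cells it had 67.3 and 42.5 in NT and 23.1, 28.8 and 14.2 at 24 h, and this loss was called (-1.42 ± 0.37, adjusted p = 0.0263). The difference between the SOX2 and NANOG responses at 24 h was 1.50 ± 0.50 and did not pass the test (adjusted p = 0.0602). The SOX2 call at 6 h ended by DESeq2 (0.94) and without 6 h replicate 1 (0.78) or NT replicate 2 (0.72), and the NANOG call without 24 h replicate 1 (-1.61), 24 h replicate 3 (-1.17) or NT replicate 1 (-1.05).

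The -35.1 kb peak was the 1 member whose 24 h response differed between SOX2 and OCT4 depletion. Its SOX2-FKBP libraries had 34.1 and 38.4 normalized counts in NT, 64.2 and 72.3 at 6 h, and 42.4 and 43.6 at 24 h, with a gain at 6 h (0.89 ± 0.23, adjusted p = 0.00509 by edgeR) and 0.23 ± 0.25 at 24 h. Its OCT4-FKBP libraries had 18.1 and 17.6 in NT, 8.98 and 10.9 at 2 h, 6.02 and 10.3 at 6 h, and 2.82 and 7.48 at 24 h. The loss was called at 6 h (-1.12 ± 0.35, adjusted p = 0.0271) and 24 h (-1.78 ± 0.49, adjusted p = 0.00575), and every treated library lay below NT. The SOX2 response minus the OCT4 response at 24 h was 2.05 ± 0.57 (adjusted p = 0.0391). This difference ended without any of 9 libraries, namely the 4 NT libraries of the 2 lines, OCT4-FKBP 24 h replicate 1, and both 2 h and both 24 h libraries of SOX2-FKBP, with values from 1.48 to 2.10, so its p lies near the threshold. DESeq2 did not call the difference (2.01), nor the 6 h changes after SOX2 (0.86) and OCT4 depletion (-1.12). The SOX2 call at 6 h ended without 6 h replicate 2 (0.78) or NT replicate 1 (0.79), the OCT4 call at 6 h without either NT library (-1.10 and -1.13), and that at 24 h without 24 h replicate 1 (-1.22).

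At the Pou3f1 gene itself the gain was called after OCT4 depletion alone. The +0.5 kb peak had 256 and 221 normalized counts in OCT4-FKBP NT, 294 and 248 at 2 h, 310 and 244 at 6 h, and 470 and 305 at 24 h, with a log2 fold change of 0.70 ± 0.22 at 24 h (adjusted p = 0.0173 by edgeR). In SOX2-FKBP cells it had 189 and 184 in NT and 207 and 253 at 24 h, above NT without a call (0.27 ± 0.17, adjusted p = 0.255). The difference between these responses was not called (-0.39 ± 0.32, adjusted p = 0.636). In NANOG-FKBP cells the libraries overlapped, at 226 and 360 in NT and 281, 259 and 294 at 24 h. The OCT4 call ended without 24 h replicate 1 (0.37) or NT replicate 2 (0.57), with total counts (0.57) and when only the compared groups were fitted (0.68).

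Downstream of Pou3f1 the gains were spread over several neighbouring genes. The +20.4 kb peak, between genes, was gained at 24 h in both lines, from 30.9 and 30.5 normalized counts to 72.6 and 75.6 after SOX2 depletion (1.24 ± 0.25, adjusted p = 0.000267 by edgeR) and from 18.9 and 13.4 to 23.9 and 37.4 after OCT4 depletion (0.94 ± 0.33, adjusted p = 0.0327). The +39.4 kb peak rose from 99 and 105 in SOX2-FKBP NT to 177 and 160 at 24 h (0.70 ± 0.18, adjusted p = 0.00443). In OCT4-FKBP cells the +39.4 kb peak was gained at 6 h, at 162 and 115 against 82.2 and 68.2 in NT (0.87 ± 0.22, adjusted p = 0.0054), and not at 24 h (99.9 and 68.8). The +57.9 kb peak at the start of Sf3a3, a subunit gene of the splicing factor SF3a, rose in OCT4-FKBP cells from 167 and 142 to 320 and 206 at 24 h (0.77 ± 0.21, adjusted p = 0.00631). The highest peak of the locus, +43.7 kb at the start of Fhl3, was not called, with 239 and 229 in SOX2-FKBP NT and 299 and 308 at 24 h (0.34 ± 0.16, adjusted p = 0.122). Calls ended at +20.4 kb for OCT4 without 24 h replicate 2 (0.59) or NT replicate 2 (0.67), at +57.9 kb without 24 h replicate 1 (0.43) or NT replicate 2 (0.62), and at +39.4 kb without NT replicate 1 for SOX2 (0.65) or NT replicate 2 for OCT4 at 6 h (0.75). The OCT4 call at +20.4 kb also ended by DESeq2 (1.01), with total counts (0.82) and with only the compared groups fitted (0.92), and that at +57.9 kb with only the compared groups fitted (0.75).

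The remaining calls around Pou3f1 were on peaks outside the naming rule and are given after their values were seen. The +47.3 kb peak in an intron of Fhl3 was gained at every time of OCT4 depletion, with 110 and 172 normalized counts in NT, 254 and 305 at 2 h, 204 and 294 at 6 h, and 232 and 230 at 24 h. Its log2 fold change was 0.97 ± 0.23 at 2 h (adjusted p = 0.00443 by edgeR) and 0.70 ± 0.24 at 24 h (adjusted p = 0.0268). The strong +52.3 kb peak had 280 and 281 in SOX2-FKBP NT and 426 and 372 at 24 h (0.47 ± 0.17, adjusted p = 0.0396). It also rose at 6 h of OCT4 depletion, from 288 and 249 to 499 and 412 (0.75 ± 0.26, adjusted p = 0.049). Gains with adjusted p from 0.0249 to 0.044 were called for +18.4 kb (0.92 ± 0.30) and -3.7 kb (0.73 ± 0.27) at 24 h of SOX2 depletion and for -23.4 kb (0.91 ± 0.31) at 24 h of OCT4 depletion. The low +29.5 kb peak in an intron of Utp11 was gained at 2 h (1.78 ± 0.47) and 6 h (2.11 ± 0.44) of OCT4 depletion, at 17.1 and 15.2 and then 19.9 and 20.6 against 3.02 and 5.68 in NT. The loss of this locus shared by both lines was at -50.4 kb, with 33.3 and 38.4 against 24.5 and 18.7 at 24 h of SOX2 depletion (-0.75 ± 0.28, adjusted p = 0.0499) and 40 and 57.3 against 19.7 and 18 at 24 h of OCT4 depletion (-1.38 ± 0.36, adjusted p = 0.00365). All of these calls except +29.5 kb at 6 h ended without at least 1 library. The 6 h libraries of OCT4-FKBP were not left out, so the +29.5 kb call at 6 h was not tried without either treated library. DESeq2 called neither the SOX2 changes at +18.4, -3.7, +52.3 and -50.4 kb nor the OCT4 change at +52.3 kb. DESeq2 gave no adjusted p for the low +29.5 kb peak at 2 h. With total counts the 24 h calls at +47.3 kb (0.57), -23.4 kb (0.78), -3.7 kb (0.73) and SOX2 -50.4 kb (-0.75) also ended. With only the compared groups fitted, calls ended at +47.3 kb at 6 and 24 h (0.78 and 0.68) and at -23.4 kb (0.88). With at least 10 counts in every library, calls ended at +47.3 kb at 6 and 24 h (0.66 and 0.5) and at -3.7 kb (0.7). The +47.3 kb calls all ended without OCT4-FKBP NT replicate 1 (0.69, 0.52 and 0.43 at 2, 6 and 24 h), that at 2 h also without 2 h replicate 2 (0.85) and that at 24 h without either 24 h library (0.71 and 0.70). The +18.4 kb call ended without 24 h replicate 2 (0.63) or NT replicate 1 (0.61), and the -3.7 kb call without either NT library, 24 h replicate 1, 6 h replicate 1 or 2 h replicate 1 (0.50 to 0.86). The -23.4 kb call ended without either 24 h library or NT replicate 2 (0.57 to 0.97), the +29.5 kb call at 2 h without either 2 h library or NT replicate 1 (1.47 to 1.89), and the OCT4 call at -50.4 kb without NT replicate 2 (-1.11). The SOX2 calls at +52.3 and -50.4 kb ended in 7 and 9 of 12 such fits (0.37 to 0.54 and -0.95 to -0.59), and the OCT4 call at +52.3 kb in 5 of 20 (0.66 to 0.86). With DESeq2 size factors the OCT4 call at +52.3 kb (0.76) and the call at -3.7 kb (0.71) ended. The former also ended with only the compared groups fitted (0.74) and with at least 10 counts in every library (0.6). The SOX2 call at -50.4 kb ended with only the compared groups fitted (-0.76) and with no count filter (-0.73).

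How many members SOX2 and OCT4 depletion had in common, which share no control libraries, depended on the fit. At 24 h 5 of the 52 members tested in both fits were lost in both lines, where 7.92% of all peaks were, which is 5 of the 7 lost after SOX2 depletion and 5 of the 9 lost after OCT4 depletion. They were Otx2 +18.7, -27.4 and -42.9 kb, Fgf5 +1.8 kb and Pou3f1 -50.4 kb. Gains in both lines numbered 2, where 3.73% of all peaks were gained in both, which is 2 of the 8 after SOX2 depletion and 2 of the 7 after OCT4 depletion, namely Pou3f1 +20.4 and -10.0 kb. With SOX2 calls from the joint fit of the 3 lines, 2 losses were shared (of 4 and of 9), Fgf5 +1.8 kb and Otx2 -42.9 kb, beside 6.68% of all peaks. The same 2 gains were shared in the joint fit (of 4 and of 7), beside 1.85% of all peaks. The test of the difference at 24 h, in the fit of all 3 lines, called 1 of 55 members between SOX2 and OCT4, Pou3f1 -35.1 kb, beside 1.67% of all peaks with a lower and 1.10% with a higher response after SOX2 depletion. With the replicate block this count became 3.

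Against NANOG, the members that differed were mostly Otx2 peaks. The SOX2 response was lower than the NANOG response at 2 members, Otx2 -27.4 kb (-1.43 ± 0.40, adjusted p = 0.0181 by edgeR) and Otx2 -35.8 kb (-1.39 ± 0.33, adjusted p = 0.00518), where 5.59% of all peaks were lower and 1.19% higher. The OCT4 response was lower at 5 members, where 6.00% of all peaks were lower and 2.89% higher. These were Otx2 -42.9 kb (-3.02 ± 0.81, adjusted p = 0.0127), -27.4 kb (-1.66 ± 0.41, adjusted p = 0.00541), +47.4 kb (-1.66 ± 0.42, adjusted p = 0.00671) and +18.7 kb (-0.99 ± 0.32, adjusted p = 0.0408), and Pou3f1 -35.1 kb (-1.85 ± 0.60, adjusted p = 0.0458). Higher responses than in NANOG-FKBP cells numbered 0 by edgeR and by DESeq2 in both tests, with 3 for SOX2 and 5 for OCT4 at an unadjusted p under 0.05. Without the 3 shallow NANOG-FKBP libraries 3 members differed between OCT4 and NANOG. Of the single differences, Otx2 -27.4 kb against NANOG ended for both factors without NANOG-FKBP NT replicate 2 (-1.0 for SOX2, -1.20 for OCT4), the library at 92.6, for SOX2 also without SOX2-FKBP 24 h replicate 2 (-1.15) or NT replicate 2 (-1.40), and for OCT4 without OCT4-FKBP 24 h replicate 1 (-1.47). Otx2 -35.8 kb ended without SOX2-FKBP 24 h replicate 2 (-1.21), Otx2 +47.4 kb without OCT4-FKBP 24 h replicate 1 (-1.26) or NT replicate 2 (-1.23), and Otx2 -42.9 kb, Otx2 +18.7 kb and Pou3f1 -35.1 kb in 5, 7 and 7 of 20 fits (-3.07 to -2.31, -1.13 to -0.74 and -1.89 to -1.29). The SOX2 count became 1 without SOX2-FKBP 24 h replicate 2 or NT replicate 2. The OCT4 count became 1 without OCT4-FKBP 24 h replicate 1, 2 without OCT4-FKBP NT replicate 2 or NANOG-FKBP NT replicate 2, and 3 without OCT4-FKBP NT replicate 1 or NANOG-FKBP 24 h replicate 1.

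Peaks within 70 kb of other genes of the same states were counted in the same way. Around 14 other formative or early epiblast genes, among them Dnmt3b, Etv5, Foxd3 and Zic2, 60 of 272 tested peaks were lost (22.1%) and 23 gained (8.46%) at 24 h of SOX2 depletion, where 14.1% of all peaks were lost and 9.17% gained. After 24 h of OCT4 depletion 72 of 281 were lost (25.6%) and 24 gained (8.54%), beside 12.7% and 10.8% of all. Around 10 naive genes, among them Klf2, Prdm14 and Tfcp2l1, 75 of 308 were lost (24.4%) and 7 gained (2.27%) after SOX2 depletion, and 89 of 307 were lost (29%) and 17 gained (5.54%) after OCT4 depletion. The median log2 fold change after SOX2 depletion was -0.17 for the formative list and -0.28 for the naive list, beside -0.42 for Otx2 and 0.33 for Pou3f1. NANOG depletion called 10 losses and 1 gain in the formative list and 4 losses and 2 gains in the naive list, where 2.25% of all peaks were lost and 0.288% gained. In the joint fit of the 3 lines, 12.7% of all peaks were lost at 24 h of OCT4 depletion and 10.9% at 24 h of SOX2 depletion. There the formative genes differed widely. Etv5 had 17 of 35 peaks lost after OCT4 depletion and 3 after SOX2 depletion, and Fgf15 had 10 and 8 of 27. Foxd3 had 8 and 7 losses of 19 peaks. Losses were few at Etv4 (1 and 0 of 19), Dnmt3a (3 and 1 of 24) and Sall2 (2 and 1 of 14). The neighbouring genes Zic2 and Zic5 are 1 locus here, since all 19 tested peaks of Zic2 are among the 20 of Zic5, with 8 losses after OCT4 depletion and 7 after SOX2 depletion.

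How the members compared with all peaks in sequence depended on the length searched. A SOX word lay in the 300 bp window of 17 of 61 members (27.9%), against 34.92% of 184798 peaks, and 8 of these 17 lay around Otx2, 3 around Fgf5 and 6 around Pou3f1. A KLF word lay in 12 members (19.7% against 16.99% of all), an OTX word in 4 (6.56% against 8.84%) and an octamer in 2 (3.28% against 4.27%). The combined SOX and POU motif, sought as TTGTN directly followed by ATGCNAA, was in none of the 61 windows and in 0.22% of all. Over whole peaks, whose widths differ, the shares were 52.5% against 58.97% for SOX, 44.3% against 31.36% for KLF and 29.5% against 21.71% for OTX, so that for OTX the order of members and all peaks turned. Of the 11 members that were lost and never gained, 4 held a SOX word, as did 2 of the 14 that were gained and never lost and 10 of the 31 tested members without a call. Median GC content was 50.7% in the lost, 55.9% in the gained and 53.3% in the uncalled members, and the median NT level was 86.7, 31.8 and 15 normalized counts. Low peaks pass such a test less easily.

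The 5′ end peaks of Otx2 and Pou3f1 were also compared with the 5′ end peaks of other protein-coding genes by Pearson's r, as a description with no test. It was taken over 27 libraries between log2 normalized counts (with 1 added) relative to the mean of NT of the same line. For Otx2 -0.8 kb the closest were those of Rsph6a (r = 0.69), Mlh3 (0.67) and Gm14412 (0.67), where the median over 10574 peaks was -0.3. For Pou3f1 +0.5 kb they were Reps1, 2310022B05Rik and Pds5a (0.94 each), with a median of 0.68. The points share libraries and depth, and the high median for Pou3f1 shows that most 5′ ends varied together with its own over these libraries. Whether shared library effects or a common change lie behind this was not tested.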

How the data were processed

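The authors aligned paired reads to mm10 with bwa mem (0.7.17-r1188), filtered them on mapping quality with SAMtools (1.10), removed duplicates with Picard (2.12.0), merged the libraries to call peaks with MACS2, and counted fragments in each peak. The deposited tables hold raw counts per peak and library. The deposited peak list gives for each peak a summit offset, a fold enrichment (a ratio), and a p-value and q-value as −log10, also made by the authors, of which the summit was used here to place peaks. Since peaks were called on merged libraries, they are the same intervals in every library.

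Of 45 samples 31 have a column in these tables, and 14 were not analysed here. Libraries were grouped by their labels, and totals per library ran from 1817191 to 17575631 counts, so low peaks carry more counting error. SOX2-FKBP was fitted on its own 12 libraries (peaks with over 10 counts in over 2 libraries), and the 3 lines at NT, 2, 6 and 24 h were fitted together in 27 libraries (over 10 counts in over 6). edgeR 4.0.16 in R 4.3.3 was used with TMM scaling and its quasi-likelihood test, and p-values were adjusted by Benjamini-Hochberg across every peak of the fit, with a threshold of 0.05. SOX2 changes come from the first fit, and OCT4 changes, NANOG changes and differences between lines from the second. Standard errors are the log2 fold change divided by the square root of F and are approximate. The scripts were tested on simulated data. Alternatives were DESeq2 1.42.0 (the tool of the study), other scalings, filters, windows and gene starts, a replicate block, and leaving out libraries.

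Named peaks were those nearest to the 5′ end, the highest in NT, up to 5 losses and up to 5 gains per locus with the largest change at 24 h of SOX2 or OCT4 depletion in the joint fit (a mean of 50 or more in the higher group), those called at 24 h of NANOG depletion, and those that differed between SOX2 and OCT4. The members and lists were chosen with earlier results of these data known. Same-numbered libraries deviated together between all 15 pairs of times in SOX2-FKBP (r 0.12 to 0.51, peaks with a mean of 50 or more) and all 6 in OCT4-FKBP (0.33 to 0.61). The labels give the replicate numbers. The likeness of the Fgf5 5′ end peak to other 5′ end peaks is not reported here.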

Additional observations from a re-analysis of the deposited data

Results flagged for a closer look

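The 24 h response of 6 members differed between lines by the test of the difference itself (edgeR, joint fit of the 3 lines). Otx2 -27.4 kb was lower after SOX2 depletion than after NANOG depletion by a log2 difference of -1.43 and lower after OCT4 depletion than after NANOG depletion by -1.66. Otx2 -35.8 kb had a SOX2 response that was lower than the NANOG response (-1.39). The OCT4 response was lower than the NANOG response at Otx2 -42.9 kb (-3.02), Otx2 +47.4 kb (-1.66), Otx2 +18.7 kb (-0.99) and Pou3f1 -35.1 kb (-1.85). Pou3f1 -35.1 kb was also higher after SOX2 depletion than after OCT4 depletion (2.05). The depleted factor and the line cannot be told apart in these differences, and all of them ended without at least 1 library.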

How the results depend on the processing

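Over 75 called values of single members, 1530 of 1765 alternative values kept their call, 235 kept their direction without passing the threshold and 0 reversed. These values include 12 or 20 fits per call that left out 1 library, many of them libraries outside the groups compared. The share kept therefore does not measure how a call stands without its own libraries, and most calls ended in at least 1 of these fits. A call whose peak was not tested in a setting has no value there. Counts of called members also changed with the setting. The filter of at least 10 counts in every library removed low peaks, such as Otx2 -42.9 and -60.6 kb, from the joint fit of the 3 lines. Other causes were not tested. DESeq2 gave 1 loss and 1 gain at 2 h of SOX2 depletion (2 and 3 by edgeR), 3 gains at 24 h (8), 1 gain at 2 h of OCT4 depletion (2, of which 1 had no adjusted p by DESeq2), 0 differences between SOX2 and OCT4 (1) and 3 between OCT4 and NANOG (5). Total counts gave 1 loss at 2 h for SOX2, 2 gains at 24 h for OCT4 (7) and 1 loss at 2 h for NANOG (0). DESeq2 size factors in edgeR or no filter gave 3 differences between OCT4 and NANOG. At least 10 counts in every library gave 1 loss (3) and 1 gain at 2 h and 2 gains at 24 h for OCT4, 1 loss at 24 h for NANOG (2) and 0 differences between SOX2 and OCT4. Fitting only the groups compared gave 2 gains at 24 h for OCT4 and was not possible for differences between lines. The joint fit of the 3 lines gave 1 loss at 2 h and 4 losses and 4 gains at 24 h for SOX2 (7 and 8 alone). A 100 kb window gave 4 losses at 2 h for SOX2 and 1 for NANOG, and the 50 kb window or any transcript start kept every count within 1.5 times. Searching whole peaks in place of 300 bp moved the share of members for 3 of 5 motifs. Leaving out the 3 shallow NANOG-FKBP libraries, chosen after seeing the data, gave 1 loss at 2 h for NANOG and 3 differences between OCT4 and NANOG.

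With the replicate block there were 5 gains at 2 h and 11 losses at 24 h for SOX2, 6 gains at 2 h for OCT4, and 3 differences between SOX2 and OCT4. In NANOG-FKBP the treated libraries of the same number deviated together between times (r 0.3 to 0.43). The NT and treated NANOG-FKBP libraries of the same number deviated apart (r -0.17 to -0.10). There the block gave 1 loss at 2 h, 1 gain at 24 h, 7 differences between SOX2 and NANOG (2) and 10 between OCT4 and NANOG. The block ended no call of a named member.

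Leaving out 1 library at a time gave 1 to 3 losses and 1 to 4 gains at 2 h for SOX2, and 4 to 7 and 2 to 8 at 24 h. For OCT4 it gave 1 to 3 losses and 0 to 3 gains at 2 h, and 4 to 9 and 2 to 8 at 24 h. For NANOG it gave 0 to 1 losses and 0 gains at 2 h, and 0 to 2 and 0 to 1 at 24 h, with the 1 loss at 2 h without 24 h replicate 2 and the 1 gain without NT replicate 1. Differences numbered 0 to 1 between SOX2 and OCT4, 1 to 2 between SOX2 and NANOG and 1 to 5 between OCT4 and NANOG. The 6 h libraries of the joint fit were not left out. Depth limits the low peaks most, as 19 of the 61 members had an NT mean of 50 or more.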
